A study of Caenorhabditis elegans with 6 samples.

Results

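The fbxc genes of Caenorhabditis elegans, called F-box C genes after their symbol class, were described on 6 Affymetrix arrays of whole-animal RNA. Members were the genes with a transcript cluster, the set of probes that stands for 1 transcribed locus, whose single annotated symbol begins with fbxc- and a digit. Where a gene has several clusters, the one that represents it was chosen by its mean signal over the 6 arrays, the only measured value in the rule. Each fbxc gene had 1 cluster, so this choice left none out, and 44 genes of the 25478 with a single-symbol cluster were members. All 44 symbols were the same in the RefSeq gene table of assembly WBcel235, which lists 40 of them as protein coding and 4 as pseudogenes. That table holds 56 fbxc genes. Of these, 9 are named in 8 clusters that carry several fbxc symbols, 1 of the 9 being a member as well, and 4 were not analysed here.

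The exposed group was 3 samples of wild type N2 hermaphrodites held for 24 h in M9 salt buffer at 50% with 500 µg/mL of C-SPIONs, superparamagnetic iron oxide nanoparticles coated with citrate. The control group was 3 samples held for the same time in the buffer alone. Both groups came from synchronised larvae grown on plates with bacteria for 48 h until the L4 stage, and both carried the same wild type background and spent the 24 h at 20 °C. Separate cultures are not stated for the 3 samples of a group, and p-values reflect no more than the spread among these samples, which may be technical. Values are the authors' deposited log2 signals, and every difference is the C-SPION mean minus the control mean, in log2 units.

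An F-box protein is the exchangeable part of an SCF ubiquitin ligase, a complex named after its Skp1, cullin and F-box subunits. The F-box, a short motif, docks on a Skp1-type adaptor, and the rest of the protein binds a target that the ligase then tags with ubiquitin, commonly for breakdown by the proteasome. Nematode genomes carry a greatly enlarged set of F-box genes, many in tandem groups of related copies, and for most of them no target protein is known. The classes fbxa, fbxb and fbxc are the main symbol classes of that set in C. elegans.

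Array medians over the 26192 tested clusters ran from 4.91 to 5.16 with C-SPIONs and from 5.07 to 5.19 in controls. C-SPION 1 correlated best with control 1, the control of the same number. Across clusters, which are not independent replicates, it correlated at 0.959 with control 1 and at 0.943 and 0.942 with controls 2 and 3. With C-SPION 2 and C-SPION 3 it correlated at 0.935 and 0.949, against 0.963 between those arrays. By limma 0 of 26192 clusters, 0%, passed an adjusted p of 0.05, and the smallest adjusted p was 0.201. Without C-SPION 1, 63 clusters passed, none of them an fbxc gene. No fbxc gene could therefore be called changed, and the values below describe these 6 arrays.

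Most fbxc genes had a higher mean signal in the C-SPION samples, with large differences in some members and none in others. Of the 44 genes, 33 were higher, 10 were lower and 1 was equal, beside 53.3% of all clusters with a difference above 0 and 46.4% below 0. The median difference was 0.35, with the middle 50% of the genes between 0.02 and 0.78, beside a median of 0.04 over all clusters. A difference above 0.5 was seen in 18 members, beside 13.1% of clusters, and 1 was below -0.5, beside 13.4%. By limma 0 of the 44 members had an adjusted p under 0.05, and the adjusted p ran from 0.27 to 1. An unadjusted p under 0.05 was reached by 10 members in the higher direction, beside 5.22% of clusters, and by 1 in the lower, beside 7.30%. The 3 arrays of each group did not overlap in 10 members, all higher with C-SPIONs, beside 9.40% of clusters, and 0 members were apart in the lower direction, beside 9.24%. These counts rested in part on single arrays. Without C-SPION 3 or without control 2 the members with an unadjusted p under 0.05 in the higher direction numbered 5 and 5, beside 2.81% and 4.13% of clusters, and there were 14 without C-SPION 1 and 14 without control 3, beside 7.51% and 4.54%. Members with groups apart in the higher direction numbered 24 without C-SPION 1, beside 20.5%, and 19 without control 3, beside 16.0%. The members were proposed with earlier results of these arrays known, so the counts are a description and no support for a shift of the family.

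**Figure D1:**
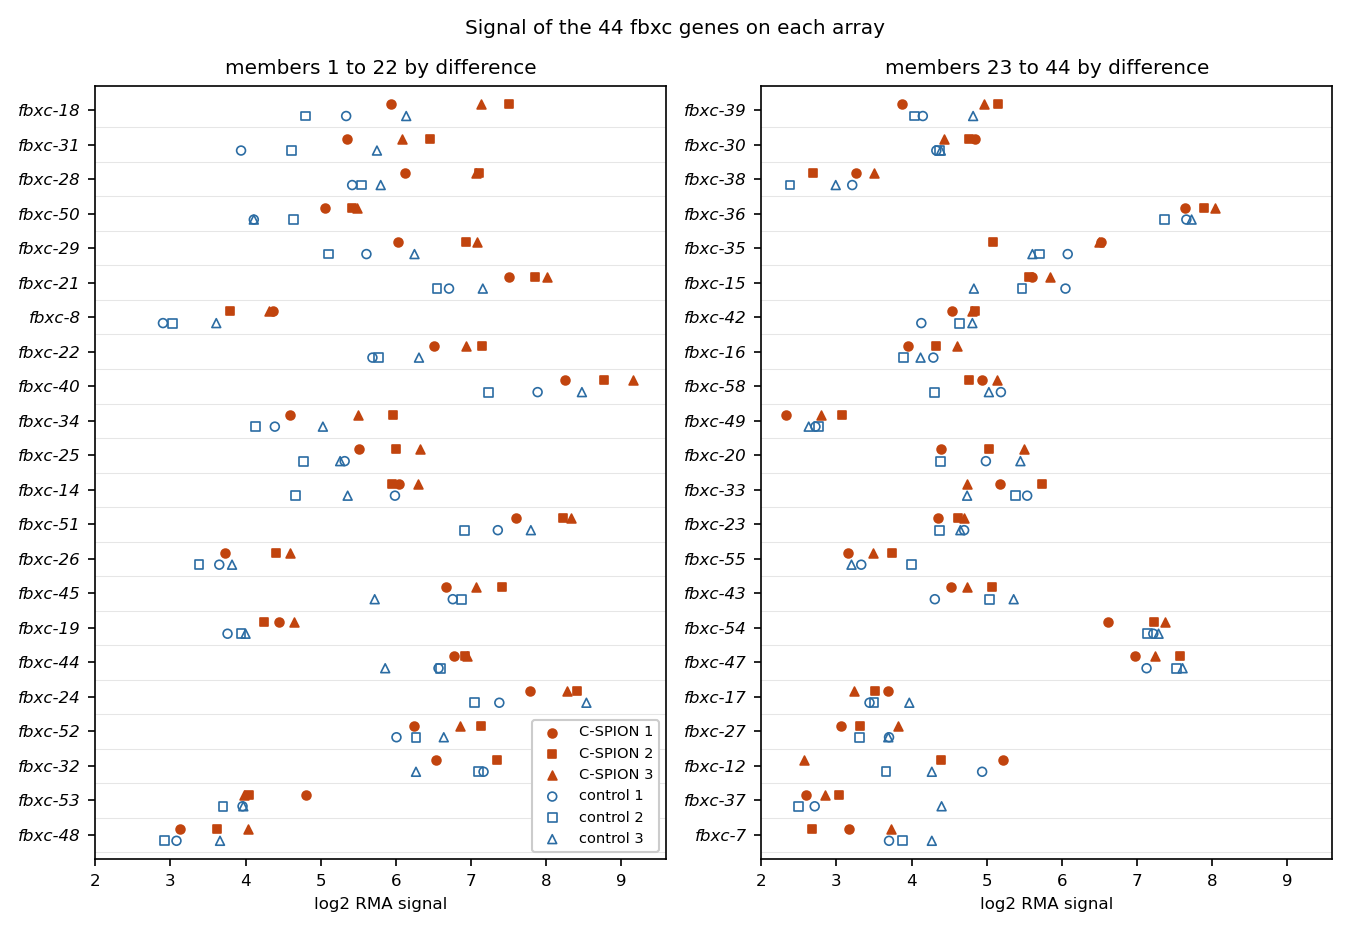
Log2 RMA signal (x axis) of the 44 fbxc genes (y axis) on each of the 6 arrays, filled symbols for the 3 C-SPION arrays and open symbols for the 3 controls, ordered by the difference between the group means. All 3 filled symbols lie to the right of all 3 open ones in 10 lines, and in the other lines the groups overlap, among them the top lines, fbxc-18 and fbxc-31. In the right panel the groups are interleaved in most lines.

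The member with the smallest p was fbxc-50 (cluster 18494465), an F-box gene of chromosome II. Its signal was 5.06, 5.42 and 5.49 in C-SPION 1 to 3, against 4.11, 4.64 and 4.11 in controls 1 to 3. All 3 exposed arrays lay above all 3 controls, and the difference was 1.04 (95% interval 0.47 to 1.60, adjusted p by limma 0.27).

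A neighbouring pair on the same chromosome, fbxc-21 and fbxc-22, had nearly equal differences. Whether their clusters share probes was not tested. The signal of fbxc-21 (cluster 18500374) was 7.51, 7.85 and 8.01 with C-SPIONs, against 6.71, 6.55 and 7.16 in controls, a difference of 0.98 (95% interval 0.40 to 1.57, adjusted p by limma 0.291). For fbxc-22 (cluster 18500370) it was 6.51, 7.15 and 6.93 with C-SPIONs, against 5.69, 5.77 and 6.31 in controls, a difference of 0.94 (95% interval 0.31 to 1.57, adjusted p by limma 0.303). In both genes the groups were apart, C-SPION 1 was the lowest exposed array and control 3 the highest control. The next gene in order, fbxc-26, had 3.73, 4.40 and 4.59 with C-SPIONs, against 3.65, 3.38 and 3.82 in controls, so that C-SPION 1 fell among the controls.

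The gene with the next smallest p after fbxc-50 and fbxc-21 was fbxc-28 (cluster 18487356). It had 6.13, 7.11 and 7.07 with C-SPIONs, against 5.42, 5.54 and 5.80 in controls. Its difference of 1.18 is a 2.27-fold ratio of the group means (95% interval of the difference 0.46 to 1.91, adjusted p by limma 0.295). C-SPION 2 and C-SPION 3 were more than 1 log2 unit above every control, and C-SPION 1 lay between them and the controls. Without C-SPION 1 the adjusted p of fbxc-28 was 0.0719, the lowest over the alternatives, of which the highest was 0.636.

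Outside chromosome II, the largest difference was in fbxc-8 of chromosome IV (cluster 18539521). Its signal was 4.36, 3.79 and 4.31 with C-SPIONs, against 2.90, 3.03 and 3.61 in controls, a difference of 0.97 (95% interval 0.32 to 1.62, adjusted p by limma 0.302). All exposed arrays were above all controls, although the whole range lay below the median cluster of the array. In fbxc-8, unlike the genes above, C-SPION 1 was the highest of the 6 arrays.

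Also apart between the groups were fbxc-25 and fbxc-19 of chromosome II. The values of fbxc-25 (cluster 18501229) were 5.51, 6.01 and 6.32 with C-SPIONs, against 5.32, 4.77 and 5.26 in controls, a difference of 0.83 (95% interval 0.17 to 1.49, adjusted p by limma 0.337). Those of fbxc-19 (cluster 18488224) were 4.44, 4.24 and 4.64 with C-SPIONs, against 3.76, 3.94 and 4.00 in controls, a difference of 0.54 (95% interval 0.06 to 1.02, adjusted p by limma 0.366). Gaps between the groups were small in both, 0.19 and 0.24 at the closest pair of arrays. The other 3 genes with groups apart were fbxc-44 at 0.54, fbxc-53 at 0.40 and fbxc-30 at 0.31, whose 95% intervals included 0. In fbxc-53 the separation was 0.01, between C-SPION 3 at 3.98 and control 3 at 3.97.

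The 2 largest differences of the family, in fbxc-18 and fbxc-31, and that of fbxc-29 were in genes whose groups overlapped. fbxc-18 (cluster 18495251) had 5.94, 7.51 and 7.13 with C-SPIONs, against 5.34, 4.80 and 6.14 in controls. Its difference was 1.43, a 2.70-fold ratio (95% interval 0.28 to 2.59, adjusted p by limma 0.339), and control 3 lay above C-SPION 1. fbxc-31 had 5.35, 6.46 and 6.08 with C-SPIONs, against 3.94, 4.61 and 5.75 in controls, a difference of 1.20 (95% interval 0.02 to 2.37). Here too control 3 exceeded C-SPION 1, and the 3 controls alone spanned 1.81 log2 units. fbxc-29 (cluster 18487360) had 6.03, 6.93 and 7.08 with C-SPIONs, against 5.61, 5.10 and 6.25 in controls, a difference of 1.03 (95% interval 0.10 to 1.95, adjusted p by limma 0.37). In this gene as well C-SPION 1 lay below control 3.

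The 4 members with the highest signals were fbxc-40, fbxc-24, fbxc-36 and fbxc-51; signals of different clusters are not compared as RNA levels. fbxc-40 had 8.25, 8.77 and 9.16 with C-SPIONs, against 7.89, 7.24 and 8.48 in controls, a difference of 0.86 (95% interval -0.03 to 1.74). fbxc-51 had 7.60, 8.23 and 8.33 with C-SPIONs, against 7.36, 6.92 and 7.80 in controls, a difference of 0.69 (95% interval -0.04 to 1.42). In both, C-SPION 2 and C-SPION 3 were above every control and C-SPION 1 was below control 3. fbxc-24 had 7.79, 8.42 and 8.28 with C-SPIONs, against 7.38, 7.05 and 8.54 in controls, so its highest array was a control, and the difference was 0.51 (95% interval -0.45 to 1.47). fbxc-36 had 7.64, 7.89 and 8.04 with C-SPIONs, against 7.66, 7.37 and 7.73 in controls, a difference of 0.27 (95% interval -0.23 to 0.77). In all 4 of these bright members C-SPION 1 lay below control 3, while their differences varied in size.

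Between these and the lower genes lay members with moderate differences. fbxc-34 stood at 0.84, fbxc-14 at 0.76, fbxc-45 at 0.60, fbxc-52 at 0.44, fbxc-32 at 0.42, fbxc-48 at 0.37 and fbxc-39 at 0.33, and the 95% interval included 0 in each. Single arrays stood at different places in them. fbxc-32 had 6.54, 7.35 and 7.90 with C-SPIONs, against 7.17, 7.10 and 6.27 in controls. There control 3 was the lowest array, whereas in fbxc-39 (3.87, 5.15 and 4.97 with C-SPIONs, against 4.15, 4.04 and 4.82 in controls) it was the highest control and C-SPION 1 the lowest array of all.

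The lowest difference belonged to fbxc-7, the 1 member with an unadjusted p under 0.05 in that direction. fbxc-7 (cluster 18480233) of chromosome II had 3.17, 2.68 and 3.72 with C-SPIONs, against 3.70, 3.88 and 4.27 in controls. Its difference was -0.76 (95% interval -1.49 to -0.03, adjusted p by limma 0.387), with C-SPION 3 just above control 1 and all values below the median cluster. The other 9 lower genes stood between -0.37 and -0.02. Among them fbxc-37, a pseudogene of chromosome X, had 2.59, 3.04 and 2.85 with C-SPIONs, against 2.71, 2.49 and 4.40 in controls, a difference of -0.37 (95% interval -1.54 to 0.79). Control 3 alone set that sign, since without it the difference was 0.23. fbxc-12 had 5.22, 4.39 and 2.57 with C-SPIONs, against 4.94, 3.66 and 4.27 in controls, a difference of -0.23 (95% interval -1.81 to 1.35). It spanned more than 2 log2 units within the exposed group, with C-SPION 1 the highest and C-SPION 3 the lowest array, and the difference was 0.52 without C-SPION 3 and 0.10 without control 1. For fbxc-27 the difference was -0.17 (95% interval -0.78 to 0.44).

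Several members sat at or near 0. fbxc-33 had the same mean of 5.22 in both groups (95% interval of the difference -0.79 to 0.79). fbxc-23 stood at -0.02 (95% interval -0.50 to 0.47) and fbxc-20 at 0.03, and both signs turned when certain single arrays were left out. fbxc-49, the dimmest member, had 2.33, 3.07 and 2.80 with C-SPIONs, against 2.72, 2.76 and 2.63 in controls, a difference of 0.03 (95% interval -0.54 to 0.60) that turned to -0.14 without C-SPION 2, -0.0033 without C-SPION 3 and -0.0067 without control 3. The second dimmest, fbxc-38, stood at 0.29 (95% interval -0.45 to 1.03).

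**Figure D2:**
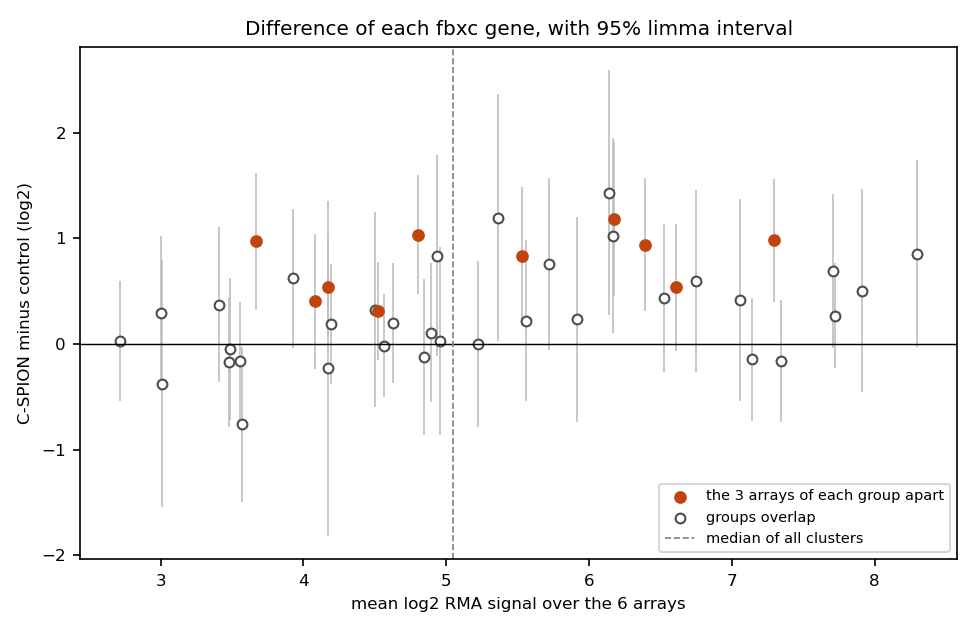
Difference of each fbxc gene in log2 units (y axis, C-SPION minus control) against its mean log2 signal over the 6 arrays (x axis), with vertical lines for the 95% limma interval and a dashed line at 5.05, the median of all clusters. Filled points are the 10 genes whose groups were apart, from 0.31 for fbxc-30 to 1.18 for fbxc-28, and most intervals cross 0.

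The brighter members had the larger median difference. Of the 21 genes at or above the median signal of all clusters, 5.05, 18 were higher and 2 lower, with a median difference of 0.60. Of the 23 dimmer genes, 15 were higher and 8 lower, with a median of 0.19. The split uses the mean over all 6 arrays, so the exposed values help decide on which side a gene falls. fbxc-31, at 5.365 over the 6 arrays and 4.77 in controls, reached the brighter side only through them. Over the 13097 clusters at or above 5.05 the median difference was 0.03. The split is a description over genes that share the same arrays. The dimmer median was 0.085 without control 2 and 0.12 without C-SPION 3, and the signal over background of each cluster is unknown.

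The arrays did not contribute equally. C-SPION 1 was the lowest of the 3 exposed arrays in 31 of 44 members, or 70.5%, beside 43.6% of all clusters. Control 3 was the highest control in 27 members, or 61.4%, beside 37.2% of clusters, and control 2 the lowest in 23, or 52.3%, beside 29.9%. As a mean over the 44 genes, relative to the control mean, the family stood at 0.14, 0.49 and 0.54 on the exposed arrays 1 to 3, against -0.01, -0.18 and 0.19 on controls 1 to 3. C-SPION 1 therefore lay below control 3, and the groups overlapped for the family mean. In log2 signal that mean was 5.46 ± 0.21 with C-SPIONs and 5.07 ± 0.18 in controls (SD, n = 3 each).

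By the RefSeq table of WBcel235, 37 members lie on chromosome II, 5 on chromosome IV and 2 on chromosome X; no positions are given, since the sources used here do not name the genome build of the array. On chromosome II, 29 genes were higher and 7 lower, with a median difference of 0.40. On chromosome IV 3 were higher and 2 lower, with a median of 0.11 that was 0.52 without C-SPION 3 and turned to -0.11 without control 2. On chromosome X 1 was higher and 1 lower. The 4 pseudogenes, fbxc-16, fbxc-35, fbxc-37 and fbxc-38, stood at 0.19, 0.23 (-0.012 without C-SPION 1), -0.37 and 0.29, and 0 of them had an unadjusted p under 0.05.

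The densest group was a run on chromosome II from fbxc-24 to fbxc-42, in which 23 fbxc genes stand with 13 other genes among them and no gap of more than 5 other genes, a limit chosen with the table in view. Of its fbxc genes 20 were measured, 16 of them higher and 3 lower, with a median difference of 0.32. Neighbours within the run differed in size and sign. fbxc-31 at 1.20 stands between fbxc-27 at -0.17 and fbxc-33 at 0, and fbxc-29 at 1.03 follows fbxc-33 directly. Later in the run come fbxc-7 at -0.76 and fbxc-18 at 1.43, the lowest and the highest member of the family, with the unmeasured pseudogene fbxc-6 and 4 other genes between them. The 24 members outside the run had a median of 0.39, with 17 higher and 7 lower. Without C-SPION 1 the median within the run was 0.54, without C-SPION 3 it was 0.21, and outside the run it was 0.43 and 0.41.

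Of the other 13 genes interspersed in the run, 11 had a cluster of their own, and 5 of these were higher and 6 lower, with a median difference of -0.0067. That median was -0.09 without C-SPION 1, 0.23 without control 3 and 0.08 after median centring, so its sign is not settled. The largest difference among them was in sdz-4, a gene named for SKN-1-dependent zygotic expression in the embryo, which follows the unmeasured fbxc-6. It had 7.73, 8.51 and 8.59 with C-SPIONs, against 7.24, 6.98 and 7.89 in controls, a difference of 0.91 (95% interval 0.11 to 1.70, adjusted p by limma 0.364). Its arrays were ordered like those of fbxc-40, with C-SPION 1 below control 3; sdz-4 was picked out after its values were seen.

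**Figure D3:**
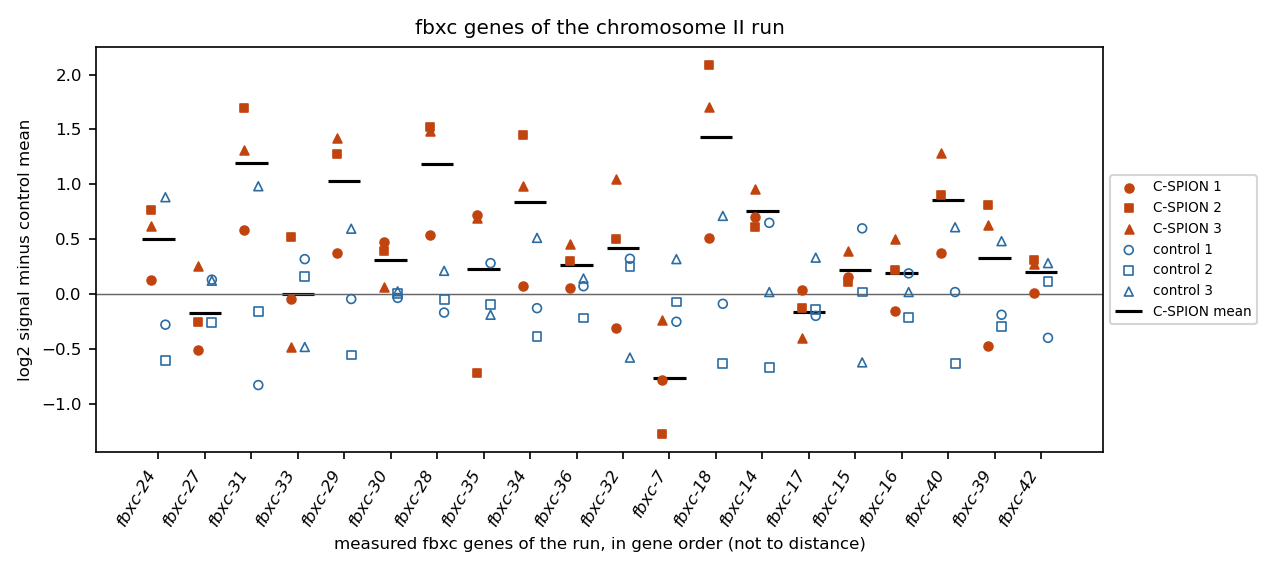
Log2 signal minus the control mean (y axis) for the 20 measured fbxc genes of the chromosome II run in gene order (x axis, not to distance), with filled symbols for the C-SPION arrays, open symbols for the controls and a bar at the C-SPION mean. The bars run from -0.76 for fbxc-7 to 1.43 for fbxc-18, and genes next to each other differ in height.

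On chromosome IV 10 fbxc genes stand side by side, and 2 of them, fbxc-12 and fbxc-8, have a cluster of their own. The 8 clusters with several fbxc symbols are no members, and no value is given to a gene from them. Of these, 4 hold identical values, with a difference of -0.09 (95% interval -0.52 to 0.35), and 1 with the same set of symbols stood at -0.14. The other 3 also hold identical values, 6.81, 6.69 and 7.04 with C-SPIONs, against 5.71, 5.61 and 6.68 in controls, a difference of 0.85 (95% interval 0.09 to 1.60, adjusted p by limma 0.367). The symbols of these 3 include fbxc-12. Its own cluster stood at -0.23 (95% interval -1.81 to 1.35), a sign that turned without C-SPION 3 and without control 1. The clusters that can read that gene thus gave differences of opposite sign, and its direction is not settled.

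The other large F-box classes were set beside fbxc by the same rule. The 108 fbxb genes had a median difference of 0.50, with 93 higher and 15 lower; 23 had an unadjusted p under 0.05 in the higher direction, beside 5.22% of clusters, and 1 in the lower, beside 7.30%. The 188 fbxa genes had a median of -0.035, with 86 higher and 101 lower. An unadjusted p under 0.05 was reached by 5 fbxa genes in the higher direction, beside 5.22% of clusters, and by 15 in the lower, beside 7.30%. The fbxa median turned to 0.055 with arrays centred on their medians. In fbxb, as in fbxc, C-SPION 1 stood below control 3, at 0.14 against 0.48 relative to the control mean. The fbxb median was 0.33 without control 2 and 0.76 without control 3, and the fbxa median was -0.0008 without C-SPION 1 and -0.07 without C-SPION 2. Whether fbxc differed from either class was not tested.

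**Figure D4:**
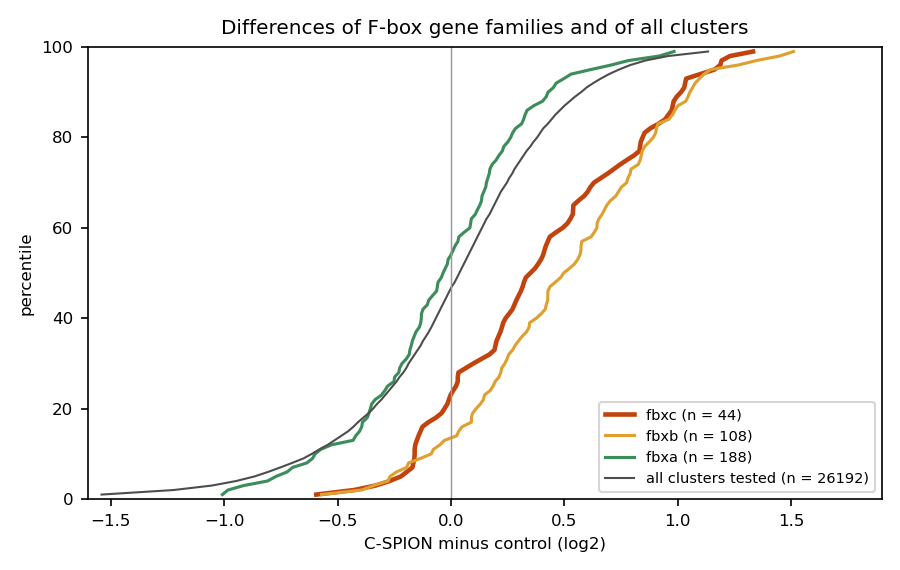
Percentile (y axis) against the log2 difference C-SPION minus control (x axis) for the fbxc, fbxb and fbxa genes and for all clusters tested. The fbxc curve crosses the 50th percentile at 0.35, between all clusters at 0.04 and fbxb at 0.50, and the fbxa curve crosses at -0.035.

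Genes of the SCF machinery with which F-box proteins work were taken from a list of 48, of which 44 were measured. By limma 0 of the 44 passed, with 34 higher and 10 lower and a median difference of 0.30, or 0.45 without C-SPION 1. In the higher direction 9 had an unadjusted p under 0.05, beside 5.22% of clusters, and in the lower direction 1, beside 7.30%. Among the Skp1-related adaptors, on which F-boxes dock, 13 of 20 skr genes were higher. skr-7 had 8.21, 8.55 and 8.76 with C-SPIONs, against 7.28, 6.96 and 6.96 in controls, a difference of 1.44 (95% interval 0.91 to 1.97, adjusted p by limma 0.217). skr-13 stood at 0.91 and skr-15 at 0.73, with groups apart in both, and skr-5 at -0.85, the 1 gene with an unadjusted p under 0.05 in the lower direction, named after its values were seen. The adaptors thus held values of both signs, and whether skr genes share probes was not tested. Of the 24 other genes, which encode cullins, RING subunits, the NEDD8 pathway, COP9 signalosome subunits and single F-box proteins outside the fbx classes, 21 were higher, with a median of 0.32, or 0.21 without control 3. cand-1, which takes part in exchanging F-box modules on cullins, had 8.45, 8.75 and 8.81 with C-SPIONs, against 8.09, 8.26 and 7.67 in controls, a difference of 0.66 (95% interval 0.11 to 1.21, adjusted p by limma 0.344). The core scaffold gene cul-1 stood at 0.60 and rbx-1, the RING subunit, at -0.21 (0.053 without C-SPION 1), both chosen for their role.

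Markers of tissues also stood at different levels in the 2 groups in these whole animals, where fewer cells of a type and less RNA per cell cannot be told apart. All 16 germ line and all 10 oocyte markers were higher, with medians of 0.73 and 0.81, and 6 of 7 sperm markers, with a median of 0.60. None of the 7 neuron and 6 muscle markers was higher, with medians of -1.17 and -0.70. Of the intestine markers 4 of 6 were higher, with a median of 0.11, and of the hypodermis markers 5 of 6, with a median of 0.26. Without control 3, 14 of 16 germ line markers were higher, with a median of 0.45. By limma 0 markers passed. The germ line genes with the smallest p were glp-1, the Notch receptor of the germ line stem cells, at 0.91 and glh-4, a helicase of P granules, at 1.04, and the oocyte genes were rme-2, the yolk receptor, at 0.98 and puf-3, an RNA-binding protein, at 1.15. For sperm they were spe-11 at 1.33 and fer-1 at 0.60, and for neurons ric-4 at -1.41 and snt-1 at -1.51. For muscle they were myo-1 at -0.71 and unc-15 at -0.65, and for hypodermis lin-26 at 0.62 and dpy-7 at 0.45. The intestine genes with the smallest p were ifb-2 at -0.82 and act-5 at -1.01, the only 2 of the 6 that were lower. The other 4 intestine markers stood between 0.07 for vit-2 and 0.84 for vit-6.

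Summed on the linear scale, germ line markers reached 4653 to 5973 with C-SPIONs and 2578 to 4274 in controls, oocyte markers 2663 to 3533 and 1349 to 2136, and sperm markers 930 to 2476 and 669 to 1266. For neurons the sums were 1334 to 1535 with C-SPIONs and 2304 to 2808 in controls, for muscle 1240 to 1642 and 1898 to 2711, for intestine 10450 to 11420 and 8314 to 11700, and for hypodermis 1185 to 1308 and 988 to 1356. RMA signals have no 0, and the dimmest marker was rol-6 of the hypodermis at a mean of 2.93. The fbxc genes and the germ line markers differed in where control 3 stood. It was the highest control for the fbxc mean, at 0.19, and for sperm markers, also at 0.19, but the lowest for germ line markers, at -0.51, and for oocyte markers, at -0.50. In C-SPION 1 to 3 the germ line markers stood at 0.41, 0.80 and 0.78, the oocyte markers at 0.57, 1.00 and 0.91, and the sperm markers at 0.16, 0.96 and 0.86. The part of these markers in the fbxc values was not tested.

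**Figure D5:**
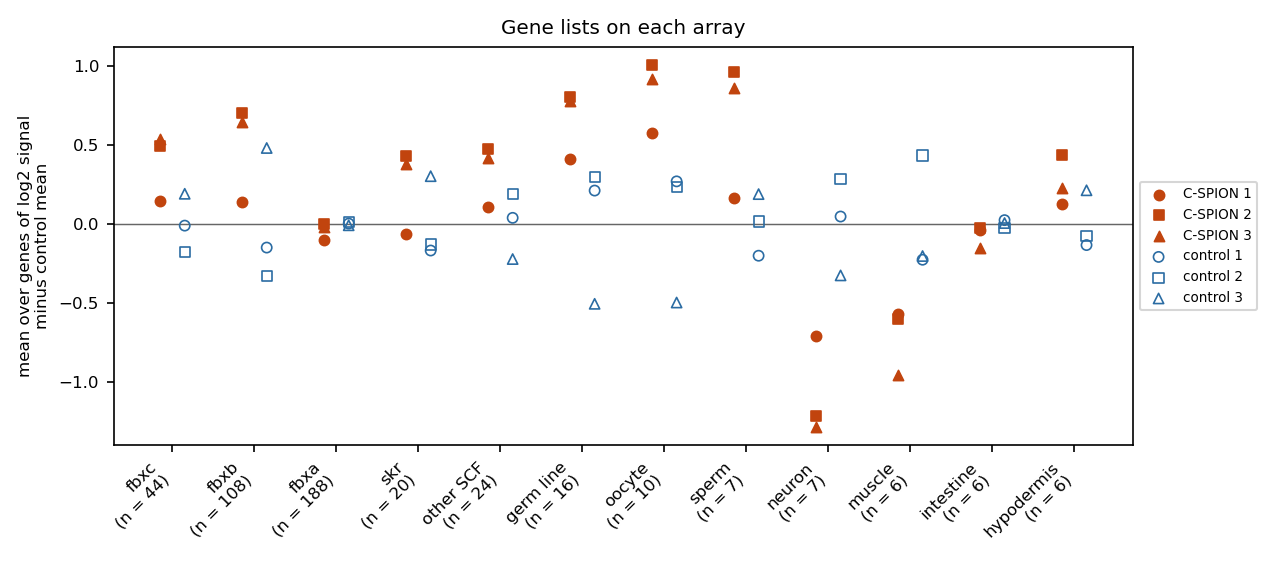
Mean over genes of the log2 signal minus the control mean (y axis) for the fbxc genes and 11 other lists (x axis, with the number of measured genes), filled symbols for C-SPION arrays and open symbols for controls. For fbxc, C-SPION 1 at 0.14 lies below control 3 at 0.19, while for germ line and oocyte markers the C-SPION arrays lie above all controls and control 3 is lowest.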

How the data were processed

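Per the submitters' processing notes, the authors used RMA in Affymetrix Expression Console, and they deposited 1 log2 signal for each transcript cluster and array. Versions, settings, detection calls and genome build were not given in the sources used. RMA normalises between arrays, so values are relative to other transcripts and small changes near background are compressed. Per the labels' protocols, 200 ng of total RNA was amplified and labelled with biotin. The table holds 29317 clusters; 25546 have 1 symbol in the platform annotation, 646 several and 3125 none here. Symbols were updated by gene identifier through RefSeq (25495 matched). The 26192 clusters with a symbol were fitted with limma 3.58.1 in R 4.3.3 (group as the only term, two-sided, Benjamini-Hochberg adjustment, threshold 0.05, prior degrees of freedom 3.11), and intervals are from the same fit. The fit was tested on simulated data. Lists other than fbxc use the brightest cluster of a gene. The third control's source name repeats that of the second; its title was used.

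Members and lists were chosen with earlier results of these data known, and no p is given for a list. Genes named were the 10 members with the smallest p, the 4 brightest, the 2 dimmest and the 4 most negative, up to 4 SCF genes and up to 2 markers of each list; further members, cul-1, rbx-1, skr-5 and sdz-4 are named outside that rule. The alternatives tried were median centring, leaving out single arrays, a replicate block, quantile normalisation, a filter on dim clusters, all clusters, trended robust eBayes and averaging a gene's clusters. Protein identity between members was planned and not run, as no protein sequences were used here. Same-numbered samples share a replicate number in the titles, and the labels do not say whether it pairs them. Their deviations from the group means correlated at 0.222, 0.203 and 0.008, beside -0.266 to 0.058 for samples of different numbers. The main fit did not treat them as pairs, and the replicate block did so as an alternative. The number of arrays limits the precision.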

Additional observations from a re-analysis of the deposited data

How the results depend on the processing

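Under every alternative run, 0 fbxc genes and 0 of the named SCF genes passed an adjusted p of 0.05, and the smallest adjusted p of an fbxc gene ran from 0.0719 without C-SPION 1 to 0.606 without C-SPION 3. The fbxc median stayed above 0, between 0.24 and 0.60, and 32 to 37 of 44 genes were higher where all were tested. Leaving out 1 array gave 10 to 24 fbxc genes apart in the higher direction and 0 to 1 in the lower. An unadjusted p under 0.05 was then reached by 5 to 14 in the higher direction and 0 to 1 in the lower. The share of all clusters apart in the higher direction was 9.40% with every array, 20.5% without C-SPION 1 and 16.0% without control 3. For an unadjusted p under 0.05 it was 2.81% without C-SPION 3, 4.13% without control 2, 4.54% without control 3 and 7.51% without C-SPION 1. Shares for other arrays left out, and for the lower direction, are not given here, so those counts have no background. The filter on dim clusters keeps 21 fbxc genes, the same as those at or above the median signal. Of these 18 were higher with a median of 0.60, 5 were apart, and 0 were lower at an unadjusted p under 0.05. The share of the clusters kept with groups apart is not given here. Under the filter 29 fbxb and 25 fbxa genes were higher, and the fbxa median was -0.14. With arrays centred on their medians, which moves the median of all clusters to 0.13, the fbxa median was 0.055. The fbxc median was then 0.44, against 0.35 in the main fit. Without single arrays fbxc-12 ran from -0.81 to 0.52, fbxc-20 from -0.25 to 0.32, fbxc-23 from -0.12 to 0.087, fbxc-35 from -0.012 to 0.71, fbxc-37 from -0.73 to 0.23, fbxc-49 from -0.14 to 0.23 and rbx-1 from -0.38 to 0.053. fbxc-23 was also 0.073 with centred arrays and 0.0375 after quantile normalisation. Members at or near 0 thus have no settled sign; the cause was not tested. With the replicate block, 11 fbxc genes had an unadjusted p under 0.05 in the higher direction, against 10 in the main fit. The share of all clusters under the block is not given here. The smallest adjusted p of an fbxc gene by limma was 0.328 and no call changed. Not every sample correlated best with its own number. Signal over background is unknown, which limits what can be said of the dim members.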

Other observations

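Taken between samples of the same number in the titles, 27 fbxc genes were higher in C-SPION 1 than in control 1 and 17 lower, with a median difference of 0.20. Between the second samples 40 were higher and 3 lower, with a median of 0.53, and between the third samples 35 were higher and 8 lower, with a median of 0.35. The matching counts over all clusters are not given here, and the labels do not say that these samples are pairs. Control 2 was the lowest control in 52.3% of members, beside 29.9% of clusters. The spread within a group was alike for the 2 groups: the median SD over the 44 genes was 0.38 with C-SPIONs and 0.38 in controls, beside 0.30 and 0.30 over all clusters.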
